A study of Medicago truncatula with 12 samples.

Results

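*MtSWEET2a* (MTR_8g042490) and *MtSWEET2b* (MTR_2g073190) are 2 of the 25 *SWEET* sugar transporter genes of *M. truncatula*, and both were followed by their identifiers in 12 RNA-seq libraries that list 54073 genes each. The libraries came from whole seedlings of the wild type Jemalong A17 at an age of 4 weeks, exposed to cold, drought or salt stress for 0, 2, 6 and 12 h. Each of the 12 conditions had 1 library, so each stress was set against its own library at 0 h, and no difference between conditions was tested over replicates. The 3 libraries at 0 h were the only unstressed ones, which means that time of day and time of stress cannot be told apart.

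SWEET proteins are membrane uniporters that let sugars pass in either direction, down their concentration gradient. In *Arabidopsis*, SWEET2 lies in the vacuolar membrane, transports glucose or its analogs, is expressed in roots, and limits the loss of sugar from roots to the soil. Cold, drought and salt stress are known to alter how plants store and move soluble sugars between the vacuole, the cytosol and other organs. Whether either *M. truncatula* protein has the role of the *Arabidopsis* one was not tested here. The study's gene table gives *MtSWEET2a* as a bidirectional sugar transporter, whereas it describes the gene model of *MtSWEET2b* as belonging to the family of sodium bile acid symporters. Its predicted protein has more membrane-spanning helices than the other family members. The study traces these to a duplication of the usual set of helices and proposes that the protein is an extraSWEET. The fragments (read pairs) counted for *MtSWEET2b* cover this whole gene model, and which stretch of it they fell on was not tested. Whether this model joins a *SWEET* gene with a neighbouring gene could not be checked, and if it does, each *MtSWEET2b* value below is that of the joined model.

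The sequences of the members at hand were the primers with which the study measured *MtSWEET2a* by qRT-PCR, in lower case from 5′ to 3′. They are shown because they define the stretch of the *MtSWEET2a* transcript that was assayed, and the qRT-PCR values themselves were not analysed here.
MtSWEET2a forward: tggtcattcgcacgaagagt
MtSWEET2a reverse: agtcatcgctagatgaacgct

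Levels are given as FPKM, the fragments on a gene scaled to the length of its transcript and to the mapped fragments of the library. The libraries held 13565648 to 28092704 mapped read pairs, and 20766 to 22100 genes reached 1 FPKM in a library. These values went back to whole fragments for 37273 of the 37274 genes above 0 (99.997%, within 0.001 of a whole number), with a transcript length of 2046 bp for *MtSWEET2b* and 1103 bp for *MtSWEET2a*. The first equals the coding length that the study gives for *MtSWEET2b*, while the second is longer than that for *MtSWEET2a*. The 2 lengths therefore do not span the same parts of a transcript. Over the 12 libraries, 13974 fragments fell on *MtSWEET2b* and 1079 on *MtSWEET2a*. The intervals below are 95% intervals from these fragments and cover counting error only. Between pairs of libraries at 0 h, 2.34% to 6.30% of genes differed by at least 2-fold. Markers of leaf and root could not be looked up, since the files do not pair identifiers with names, and in whole seedlings fewer cells that express a gene and less RNA in each cell cannot be told apart.

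*MtSWEET2b* showed a steep, transient peak under cold stress and a slower climb under salt stress, while its levels under drought stress stayed near or below that at 0 h. Under cold stress its level was 17.9 FPKM at 0 h, 49.2 FPKM at 2 h, 65.7 FPKM at 6 h and 25.3 FPKM at 12 h. Under drought stress the levels were 17.9, 13.0, 18.2 and 15.4 FPKM at 0, 2, 6 and 12 h. Under salt stress they were 17.7, 22.6, 26.9 and 43.7 FPKM at the same times. The highest level, at 6 h of cold, was 5.07 times the lowest, at 2 h of drought. The 3 libraries at 0 h had a mean of 17.9 ± 0.105 FPKM (SD, n = 3). This spread is narrower than the counting interval of 1 library, which was 16.5 to 19.4 FPKM at 0 h of cold. Of the 9 stressed libraries, 7 were above the range at 0 h and 2 below it. Against their own 0 h library, the intervals of the log2 fold change lay above 0 in 6 and below 0 in 2. The interval at 6 h of drought held 0.

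*MtSWEET2a* was expressed at a lower level, with its lowest values late in each stress. Under cold stress its level was 5.32 FPKM at 0 h, 5.13 FPKM at 2 h, 5.10 FPKM at 6 h and 2.94 FPKM at 12 h. Under drought stress the levels were 4.10, 5.34, 3.0 and 3.0 FPKM at 0, 2, 6 and 12 h. Under salt stress they were 6.28, 5.20, 2.90 and 1.64 FPKM at the same times. None of the 9 stressed libraries was above the range at 0 h and 5 were below it. That range was wide, with a mean of 5.23 ± 1.09 FPKM (SD, n = 3). The salt library at 0 h had 1.53 times the *MtSWEET2a* level of the drought library at 0 h (log2 ratio 0.61, interval 0.18 to 1.05), although neither had been stressed.

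**Figure D1:**
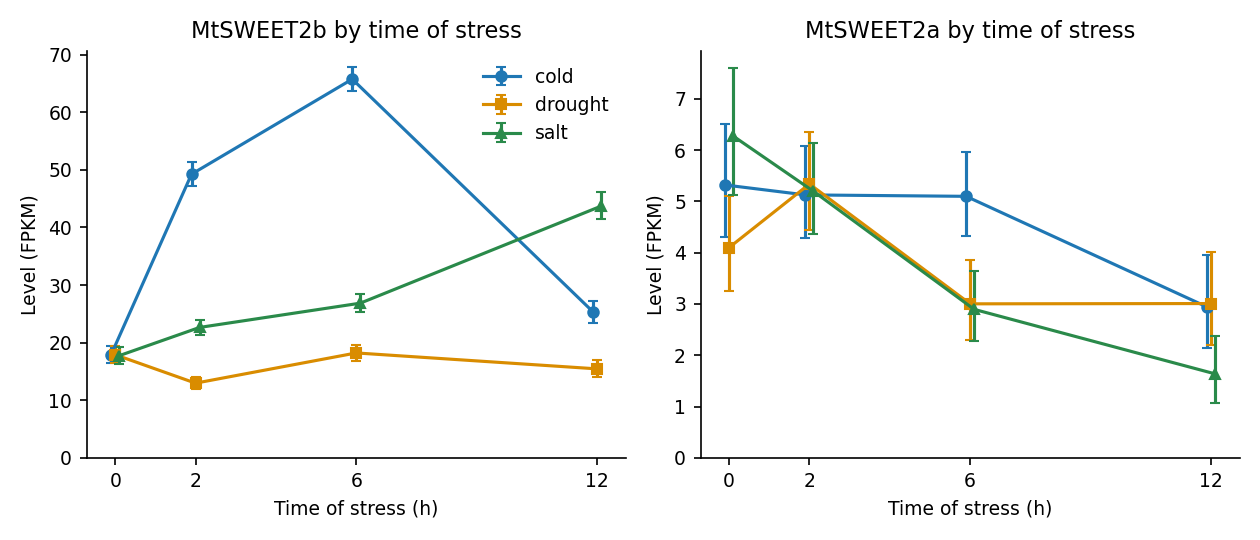
Levels of *MtSWEET2b* (left) and *MtSWEET2a* (right) in FPKM against time of stress in hours, with 1 point for each library and bars for the 95% counting interval. *MtSWEET2b* reached 65.7 FPKM at 6 h of cold and 43.7 FPKM at 12 h of salt, while *MtSWEET2a* was lowest at 12 h of salt with 1.64 FPKM.

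In the order of its 12 levels, *MtSWEET2b* was highest at 6 h of cold, followed by 2 h of cold, 12 h of salt and 6 h of salt. Of the 11 neighbouring pairs in this order, 7 differed beyond counting error. The 4 that did not were 6 h of salt against 12 h of cold, and the run from 6 h of drought through the 3 libraries at 0 h. For *MtSWEET2a*, only 1 of 11 neighbouring pairs differed beyond counting error, which was 6 h against 12 h of salt (2.90 and 1.64 FPKM). The other 10 neighbouring *MtSWEET2a* pairs, from libraries with 44 to 158 of its fragments, did not differ beyond counting error.

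The calls followed the study's rule of a 2-fold difference to 0 h, applied to genes with at least 1 FPKM in a library of that stress. Under this rule *MtSWEET2b* rose in 3 of 9 stressed libraries and fell in 0, and *MtSWEET2a* fell in 2 and rose in 0. Across all genes tested, 5.80% rose and 6.60% fell at 2 h of cold, 7.04% and 12.5% at 6 h, and 6.96% and 14.8% at 12 h. Under drought stress, 10.1% rose and 9.32% fell at 2 h, 14.0% and 24.6% at 6 h, and 12.8% and 25.2% at 12 h. Under salt stress the shares were 11.9% and 14.2% at 2 h, 14.4% and 16.0% at 6 h, and 16.6% and 26.9% at 12 h. Calls were therefore least common in the cold libraries at 2 h, where *MtSWEET2b* rose, and most common at 12 h of salt, where both genes were called.

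Under cold stress *MtSWEET2b* rose 2.75-fold at 2 h (log2 fold change 1.46, interval 1.33 to 1.59) and 3.67-fold at 6 h (1.87, interval 1.75 to 2.00). Only 938 of 23266 genes tested (4.03%) had a higher fold change at 2 h, and 783 (3.37%) at 6 h. At 12 h its level was 1.41 times that at 0 h, below the rule, with an interval of the log2 fold change that still lay above 0 (0.34 to 0.66). Between 6 h and 12 h of cold the level fell by 1.38 on the log2 scale (interval -1.5 to -1.26), a step lower than that of all but 3.83% of genes. *MtSWEET2a* had log2 fold changes of -0.05 and -0.06 at 2 and 6 h of cold, both with intervals across 0. At 12 h its log2 fold change was -0.86 (interval -1.41 to -0.33), short of the rule.

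Under drought stress neither gene passed the rule. *MtSWEET2b* had a log2 fold change of -0.47 at 2 h (interval -0.63 to -0.30), 0.02 at 6 h (-0.13 to 0.18) and -0.21 at 12 h (-0.39 to -0.04). The value at 12 h was close to the median of all genes, which was -0.23. *MtSWEET2a* had 0.38 at 2 h (-0.04 to 0.80), -0.45 at 6 h (-0.96 to 0.05) and -0.45 at 12 h (-1.0 to 0.09). The interval of *MtSWEET2b* at 2 h lay below 0, and that of *MtSWEET2a* held 0 in all 3 drought libraries.

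Under salt stress the genes moved in opposite directions at 6 and 12 h. *MtSWEET2b* had log2 fold changes of 0.35 at 2 h (interval 0.20 to 0.50) and 0.60 at 6 h (0.45 to 0.75), and rose 2.46-fold at 12 h (1.30, interval 1.16 to 1.45). At 12 h, 14.0% of 24418 genes tested had a higher fold change, so the value stood less far out among all genes than those in the cold. *MtSWEET2a* had a log2 fold change of -0.27 at 2 h (-0.65 to 0.11) and fell by 1.12 at 6 h (interval -1.57 to -0.67) and by 1.94 at 12 h (-2.61 to -1.32). At 12 h its level was 0.261 times that at 0 h, resting on 27 fragments at 12 h and 103 at 0 h, and 11.9% of genes tested had a lower fold change. The call at 6 h rests on the high 0 h library of the salt series. Against the drought library at 0 h the log2 fold change at 6 h of salt was -0.50, and against the mean of the 3 libraries at 0 h it was -0.85, both short of the rule. At 12 h of salt it was -1.32 against the drought library at 0 h, which still passed.

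Most genes had slightly lower FPKM in the stressed libraries, with median log2 fold changes between -0.26 and -0.09. Relative to these medians *MtSWEET2b* stood 1.57 higher at 2 h of cold, 2.07 higher at 6 h and 1.57 higher at 12 h of salt, on the log2 scale. Those of *MtSWEET2a* were -1.0 and -1.68 at 6 and 12 h of salt. With the values scaled to the median ratio, the negative values of *MtSWEET2a* at 2 and 6 h of cold and of *MtSWEET2b* at 12 h of drought became positive, at 0.05, 0.11 and 0.06, so no direction is read from them. *MtSWEET2a* also changed sign at 2 h of drought against the salt 0 h library (-0.23) and at 2 h of salt against the drought 0 h library (0.34). No direction is read from these 2 h values either.

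**Figure D2:**
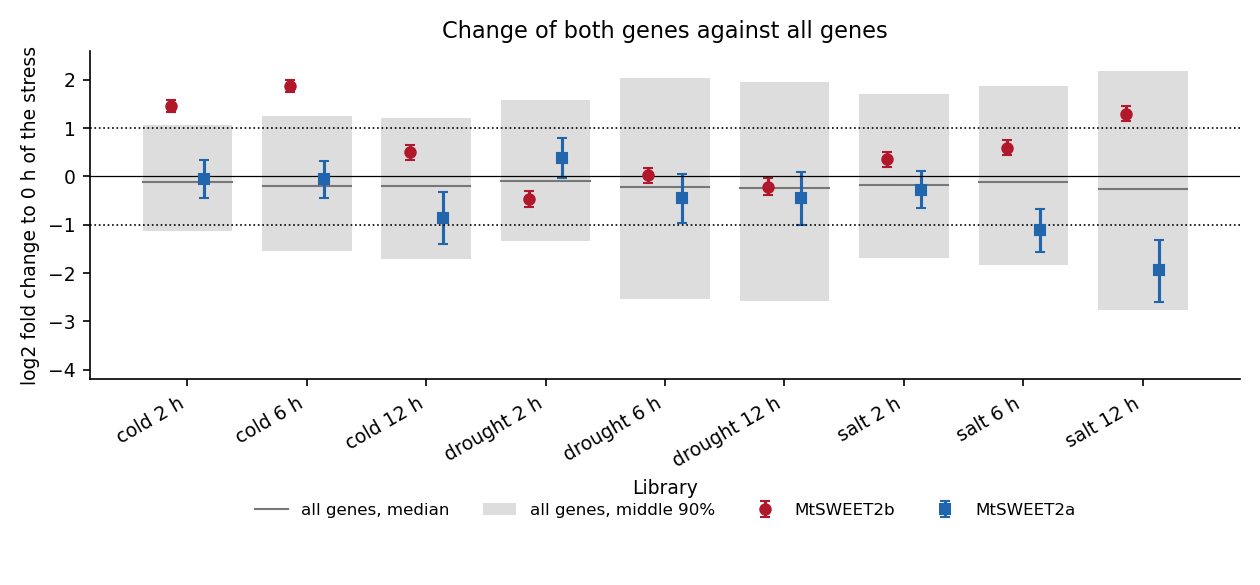
Log2 fold change of *MtSWEET2b* and *MtSWEET2a* to 0 h of the same stress in the 9 stressed libraries, with 95% counting intervals. Grey boxes span the middle 90% of all genes tested, the grey lines are their medians, and the dotted lines mark the 2-fold rule. *MtSWEET2b* lies above the grey box at 2 and 6 h of cold and inside it elsewhere, and *MtSWEET2a* lies inside it in each library.

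Set against each other at the same time, cold and salt separated *MtSWEET2b* at every point. Its level was 2.18 times as high in cold as in salt at 2 h and 2.45 times at 6 h, but 0.579 times at 12 h (log2 ratio -0.79, interval -0.92 to -0.66). Cold against drought gave 3.80, 3.61 and 1.64 times at 2, 6 and 12 h, and salt against drought gave 1.75, 1.47 and 2.83 times. For *MtSWEET2a* the intervals of all 3 ratios at 2 h held no difference. At 6 h its level in cold was 1.70 times that in drought and 1.76 times that in salt. At 12 h cold and drought did not differ beyond counting error, and salt was at 0.544 times drought (log2 ratio -0.88, interval -1.62 to -0.16).

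*MtSWEET2b* was the higher of the pair in all 12 libraries, and the ratio between them varied 11.0-fold. *MtSWEET2b* had 3.37, 4.37 and 2.83 times the FPKM of *MtSWEET2a* at 0 h of cold, drought and salt. These ratios are per transcript length, and only the length of *MtSWEET2a* extends beyond the coding sequence. In fragments without length each ratio is 1.85 times as large. The ratio was 9.61 at 2 h of cold, 12.9 at 6 h (interval 11.0 to 15.2) and 8.60 at 12 h. Under drought stress it was 2.43 at 2 h, 6.06 at 6 h and 5.13 at 12 h. Under salt stress it was 4.36 at 2 h, 9.28 at 6 h and 26.7 at 12 h (interval 18.3 to 40.7).

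The ratio grew beyond counting error over its own 0 h value in 6 of 9 stressed libraries, which were all those of cold and salt. At 2 h of salt this rests on the salt library at 0 h, since the ratio there, 4.36, was 0.998 times that of the drought library at 0 h. Against each of the 3 libraries at 0 h the ratio grew in 5 of the 9. Over its own 0 h value the ratio shrank in 1, at 2 h of drought, where it was 0.556 times the 0 h ratio. Against the salt library at 0 h it was 0.859 times, with an interval of the log2 change across 0 (-0.63 to 0.19). The gain at 12 h of salt was 9.45-fold, made up of the rise of *MtSWEET2b* and the fall of *MtSWEET2a*, and against the drought library at 0 h it was 6.12-fold. The gain at 6 h of cold was 3.83-fold, with *MtSWEET2a* at 0.958 times its 0 h level. The share of *MtSWEET2a* in the FPKM of both genes was thus 7.20% at 6 h of cold, against 22.9% at 0 h, and 3.61% at 12 h of salt, against 26.1% at 0 h. Over the 12 libraries, which share their scaling and sampling times, the log2 levels of the pair had a Pearson r of -0.17 and a Spearman rho of -0.45, given as a description.

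**Figure D3:**
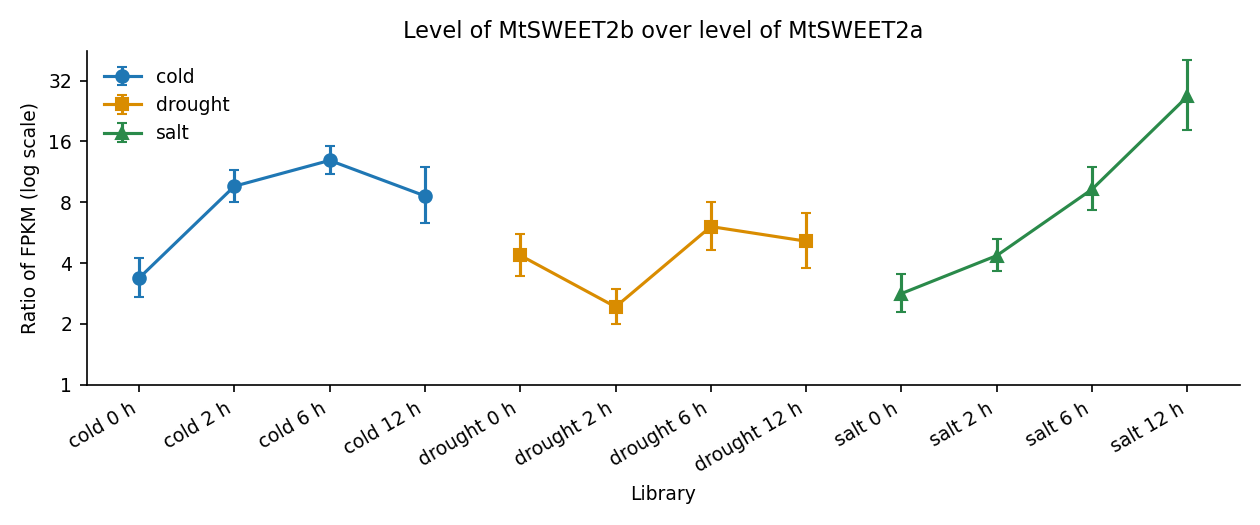
FPKM of *MtSWEET2b* over FPKM of *MtSWEET2a* in each library on a log axis, with 95% counting intervals. The ratio was 2.43 at 2 h of drought and 26.7 at 12 h of salt, its lowest and highest values.

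Within the family, *MtSWEET2b* ranked between place 3 and place 5 of 25 in FPKM, and *MtSWEET2a* between place 6 and place 8. *MtSWEET2b* made up 23.6% of the summed FPKM of the family at 6 h of cold, against 8.80% at 0 h, and its lowest share was 4.86% at 12 h of drought. *MtSWEET2a* made up 0.744% at 12 h of salt and at most 3.07%, at 2 h of drought. Among all genes with an FPKM of at least 1, the level of *MtSWEET2b* stood above 93.2% of them at 6 h of cold, against 71.5% at 0 h. That of *MtSWEET2a* stood above 9.51% at 12 h of salt, against 39.6% at 0 h.

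Of the other 23 *MtSWEET* genes, 8 were tested in the cold. At 2 h of cold, 0 of the 8 rose, a count near the 5.80% of all genes, and *MtSWEET1a* fell, with 0.649 FPKM at 2 h and 1.57 FPKM at 0 h. At 6 h of cold, 0 rose, beside 7.04% of all genes, and *MtSWEET1a* and *MtSWEET16* fell. *MtSWEET16* had 7.45 FPKM at 6 h of cold, against 15.7 FPKM at 0 h. The median log2 fold change of the tested genes was 0.11 at 2 h and -0.43 at 6 h of cold, beside -0.11 and -0.19 over all genes. At 12 h of salt, where *MtSWEET2b* rose and *MtSWEET2a* fell, 3 of 9 tested genes rose (*MtSWEET1a*, *MtSWEET7* and *MtSWEET9b*) and 3 fell (*MtSWEET3c*, *MtSWEET15c* and *MtSWEET16*), beside 16.6% and 26.9% of all genes. *MtSWEET1a* had 15.6 FPKM at 12 h of salt, against 1.2 FPKM at 0 h, and *MtSWEET3c* had 1.57 FPKM, against 14.0 FPKM. No other *MtSWEET* gene with at least 1 FPKM in a library had a correlation with *MtSWEET2b* above 0.21 over the 12 libraries.

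The shape of the *MtSWEET2b* response in the cold was then looked for in all genes. A transient cold peak was a rise of at least 2-fold at 2 and 6 h, less than 2-fold at 12 h, and the highest level at 6 h. The shape was set after that of *MtSWEET2b* was known, so its own place in the list is no finding. Of 23266 genes tested in the cold, 94 (0.404%) had it, and no other *MtSWEET* gene was among them. Of 1349 genes raised at 2 h of cold, 793 were raised at 6 h too. Most of these 793 did not return below the rule, since 536 were still raised at 12 h. *MtSWEET2b* was 15th of the 94 by FPKM at 6 h and 51st by fold change. Its 1.41-fold at 12 h was clear of the limit, which lay between genes at 1.997-fold and 2.02-fold.

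The other 93 genes of the peak were mixed in the stresses that the rule had not used. Of them, 25 were not called in any drought library, a count that can hold genes below the filter, since 81 of the 93 passed it there. No share over all genes stands beside this count, so no likeness to *MtSWEET2b* is read from it. Under drought stress, 37 of the 81 genes that passed the filter rose at 2 h, 40 at 6 h and 35 at 12 h, while *MtSWEET2b* did not pass the rule in either direction. The shares were 45.7%, 49.4% and 43.2%, beside 10.1%, 14.0% and 12.8% of all genes. A gene below 1 FPKM at 0 h passes the filter only if a stressed library reaches 1 FPKM, which favours genes that rise. The peak genes were not matched to all genes in level, so their shares under drought and salt stress are descriptions. At 2 h of drought the median log2 fold change over all 93 was 0.83 (middle 50% -0.04 to 1.5), or 0.91 over the 81 that passed, and that of *MtSWEET2b*, with the same pseudocount of 0.1, was -0.46. At 2 h of salt the median over all 93 was 1.04, or 1.14 over the 84 that passed the filter there. *MtSWEET2b* was at 0.35, and the median of all genes tested was -0.14. At 12 h of salt the median was 0.63 over all 93 and 0.80 over these 84, against 1.30 for *MtSWEET2b*. Of the 84 genes, 41 rose (48.8%) and 12 fell (14.3%), beside 16.6% and 26.9% of all genes.

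**Figure D4:**
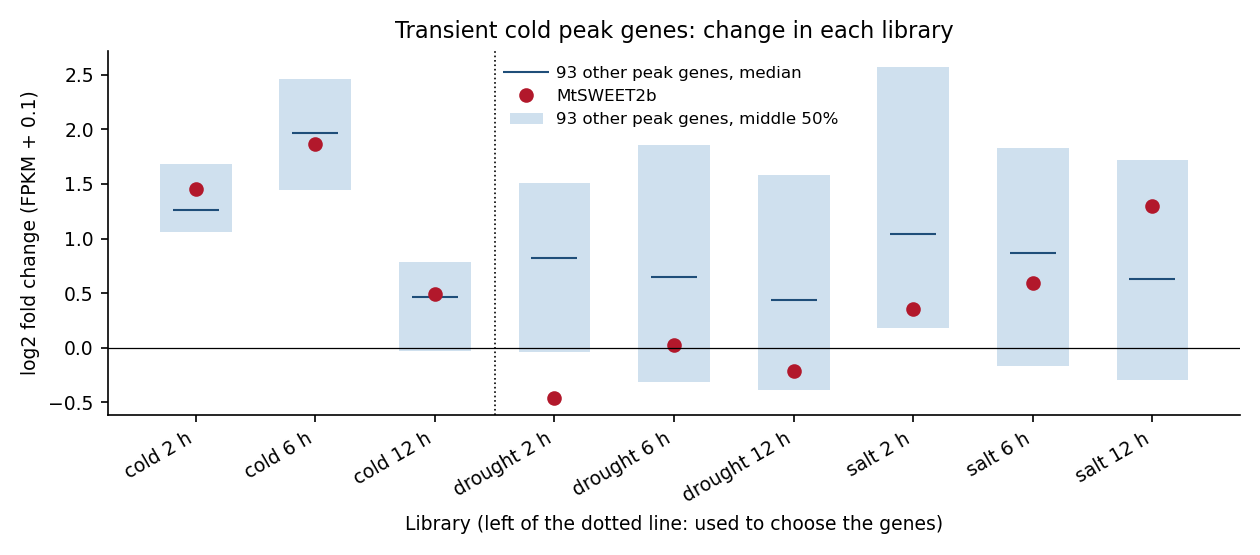
Log2 fold change to 0 h of the same stress, with a pseudocount of 0.1 FPKM, for the 93 other genes with a transient cold peak (box for the middle 50%, line for the median) and for *MtSWEET2b* (red point). The cold libraries left of the dotted line chose the genes. In the drought libraries the medians are 0.83, 0.65 and 0.43, and *MtSWEET2b* is at -0.46, 0.02 and -0.21.

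Across all 12 libraries, few genes followed *MtSWEET2b* closely. Of 25551 genes with at least 1 FPKM in a library, 65 (0.254%) had a Pearson r of at least 0.8 with it in log2 level. For *MtSWEET2a*, 1197 genes (4.68%) reached the same value. These correlations are descriptions over 12 libraries that share their scaling, their sampling times and 3 unstressed starting points. The gene most like *MtSWEET2b* was MTR_4g099110 (r = 0.92). Its level was 58.4, 240, 426 and 163 FPKM at 0, 2, 6 and 12 h of cold and 60.5, 74.1, 90.1 and 124 FPKM at the same times of salt. It was still 2.78-fold up at 12 h of cold, so it did not have the transient peak. The next, MTR_2g086530 (r = 0.92), had 16.1, 34.8, 86.3 and 34.0 FPKM under cold stress and 2.34-fold its 0 h level at 12 h of salt. The gene most like *MtSWEET2a*, MTR_1g072260 (r = 0.97), varied less, between 195 and 334 FPKM.

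The list of nearest genes was not stable. Of the 10 with the highest r, 3 remained among the nearest 10 under Spearman's rho, and 0 remained without the 4 cold libraries or without the 4 drought libraries. MTR_4g099110 was thus also outside the nearest 10 without the cold or without the drought libraries. Its r was between 0.89 and 0.95 with the libraries of each stress left out in turn. The gene was chosen by its r over these same libraries, so these values are descriptions only.

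The profile most opposite to *MtSWEET2b* had an r further from 0 than any similar one. MTR_5g040970, a gene without a name in the files and looked up after its values were seen, had an r of -0.97 with *MtSWEET2b*. Its level was 40.6, 12.1, 9.26 and 20.4 FPKM at 0, 2, 6 and 12 h of cold, 41.7, 52.9, 51.2 and 42.5 FPKM under drought stress and 41.0, 31.6, 23.5 and 10.6 FPKM under salt stress. It fell in the same 3 libraries in which *MtSWEET2b* rose, to 0.297-fold and 0.228-fold at 2 and 6 h of cold and 0.258-fold at 12 h of salt, and was not called in the other 6. At 12 h of cold it was at 0.503-fold, just short of the rule. Of 22317 genes tested in all 3 stresses, 6 (0.0269%) had these mirrored calls. The r was between -0.97 and -0.96 with the libraries of each stress left out in turn. It was chosen as the lowest of 25551 values over these same libraries. The size of r, its values with a stress left out and the mirrored calls all reuse the values that chose the gene. They are therefore descriptions of these libraries and no separate check.

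**Figure D5:**
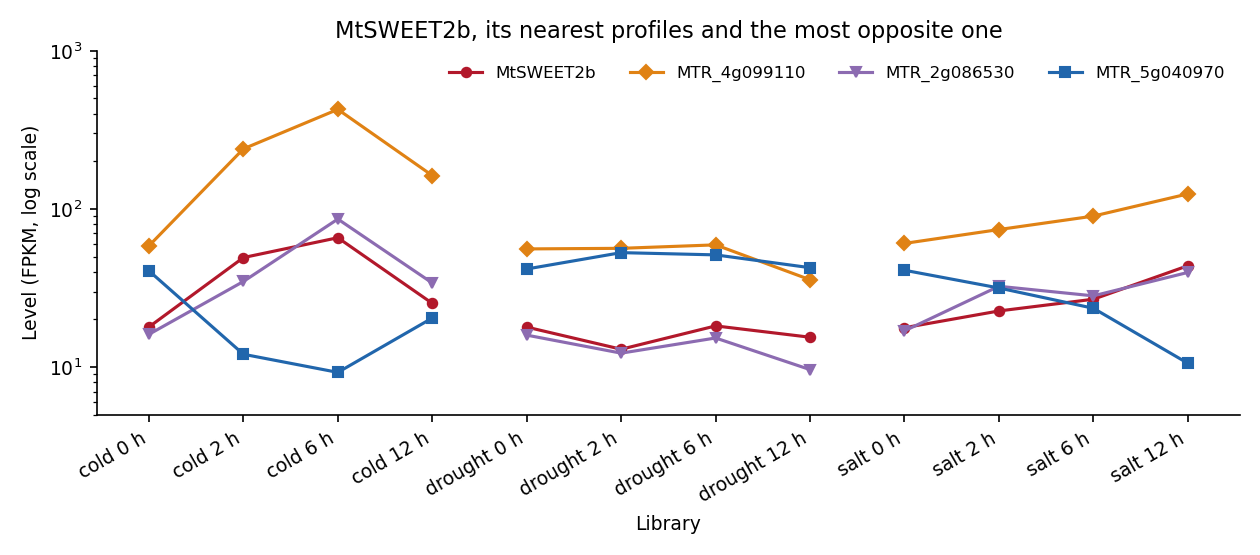
Levels in FPKM on a log axis in the 12 libraries for *MtSWEET2b*, for the genes with the highest r to it (MTR_4g099110 and MTR_2g086530) and for the gene with the lowest r (MTR_5g040970). MTR_5g040970 was lowest at 6 h of cold with 9.26 FPKM, where *MtSWEET2b* was highest with 65.7 FPKM.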

How the data were processed

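The authors used Tophat 2.1.0 to align reads to the Mt4.0v1 genome, and the study names StringTie 2.0 for its FPKM values. The deposited values are FPKM, 1 per gene and library. The submitters' processing notes name HTSeq and DESeq without versions, and the labels describe libraries of tags from the 3′ end of transcripts. Which of these tools gave the deposited values was not tested. FPKM divides by length, so the pair was also compared in fragments. Whole fragments were recovered from the steps of the FPKM values, with numbers up to 60000 tried. No count model was fitted, since each condition had 1 library, and no p-value is given.

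Fold changes were FPKM ratios to 0 h of the same stress, without a pseudocount. A call needed a ratio of at least 2 or at most 0.5 and at least 1 FPKM in 1 of the 4 libraries of the stress. Intervals of fold changes and of ratios between libraries were 95% Clopper-Pearson intervals on fragments, set against mapped pairs. Those of the ratio of the 2 genes were set against transcript lengths instead. Intervals of levels were 95% Poisson intervals on fragments, and those of a changed ratio combined the errors of its parts. Likeness was Pearson's r of log2(FPKM + 0.1). The rule for named genes was both members, other *MtSWEET* genes called where *MtSWEET2b* was, and the nearest profiles. Of the identifiers, 0 matched the RefSeq table, so lists by description could not be formed and few identifiers are printed. Members and lists were chosen with earlier results of these data known. The recovery of fragments, the calls and the intervals were run on simulated counts that held counting error only. Those counts held no spread between plants or libraries, so they cannot show how reliable a call from 1 library is. The tools were scipy 1.17.1, numpy 2.4.6, matplotlib 3.10.9 and pandas 2.3.3 under Python 3.11.15.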

Additional observations from a re-analysis of the deposited data

Results flagged for a closer look

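The log2 fold changes of *MtSWEET2b* had opposite signs under different stresses at the same time, with both counting intervals clear of 0. At 2 h its log2 fold change was 1.46 in cold and -0.47 in drought, a difference of 1.92. At the same time salt and drought, at 0.35 and -0.47, differed by 0.82. At 12 h cold and drought, at 0.50 and -0.21, differed by 0.71, and salt and drought, at 1.30 and -0.21, differed by 1.51. With 1 library per condition these differences were not tested. The value for drought at 12 h lay close to the median of all genes and turned positive, to 0.06, under median ratio scaling, so no opposite direction is read at 12 h.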

How the results depend on the processing

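No paired analysis was possible because each condition had 1 library. The number of libraries called for *MtSWEET2a*, 2 of 9 as reported, was 1 with a pseudocount of 1, with a threshold of 3, and against the mean of the 3 libraries at 0 h, the cold 0 h library or the drought 0 h library. It was 5 against the salt 0 h library. For *MtSWEET2b* it was 3, and 1 with a threshold of 3. With a threshold of 1.5 it was 3 for *MtSWEET2a* and 4 for *MtSWEET2b*. The transient cold peak was met by 94 genes, and by 154 without a filter on low values, 160 with a threshold of 1.5 and 56 with a threshold of 3. The log2 fold change of *MtSWEET2b* with median ratio scaling was 2.04 at 6 h of cold and 1.57 at 12 h of salt. That of *MtSWEET2a* at 6 h of salt was -0.50 against the drought 0 h library. The log2 ratio of *MtSWEET2b* to *MtSWEET2a* was 3.69 at 6 h of cold and 4.74 at 12 h of salt in FPKM. In fragments without length these were 4.58 and 5.63, and with a pseudocount of 1 they were 3.45 and 4.08. The log2 growth of this ratio at 2 h of salt, 0.62 over its own 0 h library, was -0.0035 over the drought 0 h library, a control added after the data were seen.

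The share of genes with a lower fold change than *MtSWEET2b* was 95.8% at 2 h of cold. It was 89.4% without a filter, 94.7% with a filter of 0.5 FPKM, 96.6% with 2 FPKM, 97.3% with a mean of 5 FPKM and 96.5% against the mean at 0 h. At 6 h of cold the same settings gave 89.98%, 95.5%, 97.2%, 97.8% and 97.0%, beside 96.5% as reported. At 12 h of salt the first 4 gave 78.2%, 83.7%, 87.6% and 89.9%, beside 85.6%. Of the 10 genes most like *MtSWEET2b*, 3 remained with Spearman's rho, 5 with a mean of at least 5 FPKM, 6 with a pseudocount of 1 and 3 by the distance of the 9 log2 fold changes. Without the 4 libraries of cold, drought or salt, settings added after the data were seen, 0, 0 and 2 remained. No called fold change of either gene changed sign under any alternative, and 114 of 126 alternative values of the 18 fold changes lay within the counting interval.

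The depth limited *MtSWEET2a*, with 27 to 158 fragments in a library, more than *MtSWEET2b*, with 438 to 3779. Counting intervals hold neither the spread between plants nor that between libraries. The alternatives of scaling and control shift a fold change by at most 0.61 on the log2 scale.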
